A study of Mus musculus with 12 samples.

Results

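The 9 genes T, Eomes, Mixl1, Gsc, Fgf8, Wnt3, Wnt8a, Evx1 and Mesp1 are regulators of gastrulation and mesendoderm formation in the mouse embryo. They were taken by symbol from the 24391 symbols of the count table, and all 9 were present. The low-count filter of the test kept 8 of them and removed Mesp1. RNA was sequenced from 4 female lines of mouse embryonic stem cells (mESC), hybrids between C57BL/6J-129/SvJ and Mus musculus castaneus. All 4 lines, wild-type controls included, carried a Cre recombinase at Rosa26 that 4-hydroxytamoxifen (OHT) activates (Rs26+/CreERT). Lines 5.3 and 5.16 were Rif1+/+ and are called WT. Lines 15.10 and 16.9 were Rif1F/F, with floxed alleles of Rif1, a gene for a chromatin protein of replication timing and DNA repair. They are called F/F before OHT and KO after it. Each line was sequenced 3 times: as mESC before deletion without OHT, as mESC treated with OHT for 2 days, and as embryoid bodies (EB), floating cell aggregates, grown for 2 days from OHT-treated cells. The 12 libraries therefore formed 6 groups of 2, and WT cells received OHT as KO cells did. Replicates 1 to 4 are lines 5.3, 5.16, 15.10 and 16.9 in that order. Titles of the F/F libraries name both KO and WT, and these libraries were taken as undeleted because they had no OHT and are bracketed as WT. No source used here states for how long cells received OHT before EB formation. The mESC medium held serum, leukemia inhibitory factor, the MEK inhibitor PD0325901 and the GSK3 inhibitor CHIR99021.

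Gastrulation begins when cells of the epiblast enter the primitive streak and become mesoderm and definitive endoderm. Wnt3 and Nodal signals start the streak, and Fgf8 keeps its cells moving out. The ligands act through T and Eomes, which are T-box transcription factors, through the homeobox factors Mixl1, Gsc and Evx1, and through the basic helix-loop-helix factor Mesp1. T is a well known target of Wnt signalling through beta-catenin and TCF/LEF factors, and inhibition of GSK3 stabilises beta-catenin.

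Promoters of T, Eomes, Gsc, Wnt3, Evx1 and Mesp1, 6 of the 9 genes, were taken from the RefSeq promoter table of build GRCm38.p6. No promoter was taken for Mixl1, Fgf8 or Wnt8a. The 250 bases before the start of 3 of these 6 genes are shown, 5′ to 3′ on the gene's strand. They are T, which had the largest genotype difference, Eomes, the other T-box gene, and Mesp1, the remaining gene of the 6 with a TCF/LEF word. Capitals mark the words CTTTGAA and CTTTGAT, searched on both strands.
T, chr17:8434173-8434422 (plus strand): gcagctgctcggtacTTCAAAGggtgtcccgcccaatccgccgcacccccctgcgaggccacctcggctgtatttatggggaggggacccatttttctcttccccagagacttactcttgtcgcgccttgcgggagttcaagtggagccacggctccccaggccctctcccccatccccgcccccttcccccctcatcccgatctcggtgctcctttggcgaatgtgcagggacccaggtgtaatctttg
Eomes, chr9:118477939-118478188 (plus strand): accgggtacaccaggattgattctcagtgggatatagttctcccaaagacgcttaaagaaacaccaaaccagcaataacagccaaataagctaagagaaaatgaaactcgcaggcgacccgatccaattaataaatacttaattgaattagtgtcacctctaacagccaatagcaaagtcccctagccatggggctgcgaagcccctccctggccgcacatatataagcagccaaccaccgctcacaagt
Mesp1, chr7:79793591-79793840 (minus strand): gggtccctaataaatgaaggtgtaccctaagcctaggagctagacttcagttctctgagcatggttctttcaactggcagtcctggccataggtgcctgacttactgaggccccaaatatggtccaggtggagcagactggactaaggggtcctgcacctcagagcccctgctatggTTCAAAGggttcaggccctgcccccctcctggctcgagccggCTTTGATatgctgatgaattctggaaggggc
The T promoter held CTTTGAA on the minus strand, 235 bases before the start. The Mesp1 promoter held CTTTGAA 73 bases and CTTTGAT 31 bases before its start. Eomes, Gsc, Wnt3 and Evx1 held neither word in this window. Of all 32851 promoters of this length, 7.48% held a TCF/LEF word. None of the 6 windows held the T-box word AGGTGTGA, the FOXH1 word TGTGGATT or the GSC and OTX word TAATCC, which 1.12%, 0.718% and 6.25% of promoters held. These are matches of letters and no measure of binding.

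In WT cells the step from mESC to EB raised the 3 ligand genes most, with Wnt8a 186-fold, Fgf8 20.7-fold and Wnt3 16.5-fold higher in EB. The transcription factor genes were split. Eomes rose 1.54-fold, whereas T fell 4.79-fold, Gsc 7.04-fold and Evx1 3.06-fold. The largest genotype difference among the 9 genes was that of T in mESC, 10.4-fold lower in KO than in WT after OHT and already 8.88-fold lower in F/F than in WT before OHT. In EB the T libraries of the genotypes overlapped, and T had come down in the WT lines and up in the floxed lines. Fgf8 was 1.72-fold higher and Wnt3 1.47-fold lower in KO EB than in WT EB. Both differences passed edgeR's adjusted p threshold of 0.05, as did 40.4% of all genes tested. Neither passed it in every fit with an EB library left out.

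Levels are CPM, counts scaled to a common library size by trimmed mean of M values (TMM), given per library or as mean ± SD (n = 2). Log2 fold changes carry the standard error (SE) of the fit. Adjusted p is that of edgeR's quasi-likelihood test with Benjamini-Hochberg adjustment over the 17115 genes tested, and a gene is called where it is under 0.05. Library totals were 28600870 to 64808897 counts. The 2 libraries of a group correlated at 0.993 to 0.995 in log2 CPM and differed by more than counting noise. The chi-square per degree of freedom was largest for the WT mESC pair after OHT (71.8), which also had the most counts. That statistic grows with depth and does not tell which library of a pair differs, and the lowest correlation was that of the KO mESC pair (0.9932). Values that rest on WT mESC replicate 1 are also given without it where they move. Rif1 itself, reported to check the labels, stood before OHT at 1537 and 1752 CPM in the WT lines and at 1172 CPM in each of the F/F lines. After OHT the mESC held 1605 and 1455 CPM (WT) and 702 and 662 CPM (KO), and the EB held 1382 and 1342 CPM (WT) and 789 and 845 CPM (KO). Each genotype is represented by 2 lines, so Rif1 genotype and any other difference between these lines cannot be told apart. The description labels share a first part within a condition that differs between conditions, so that part and the condition cannot be told apart either. In these bulk libraries fewer cells of a type and less RNA per cell also cannot be told apart.

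**Figure D1:**
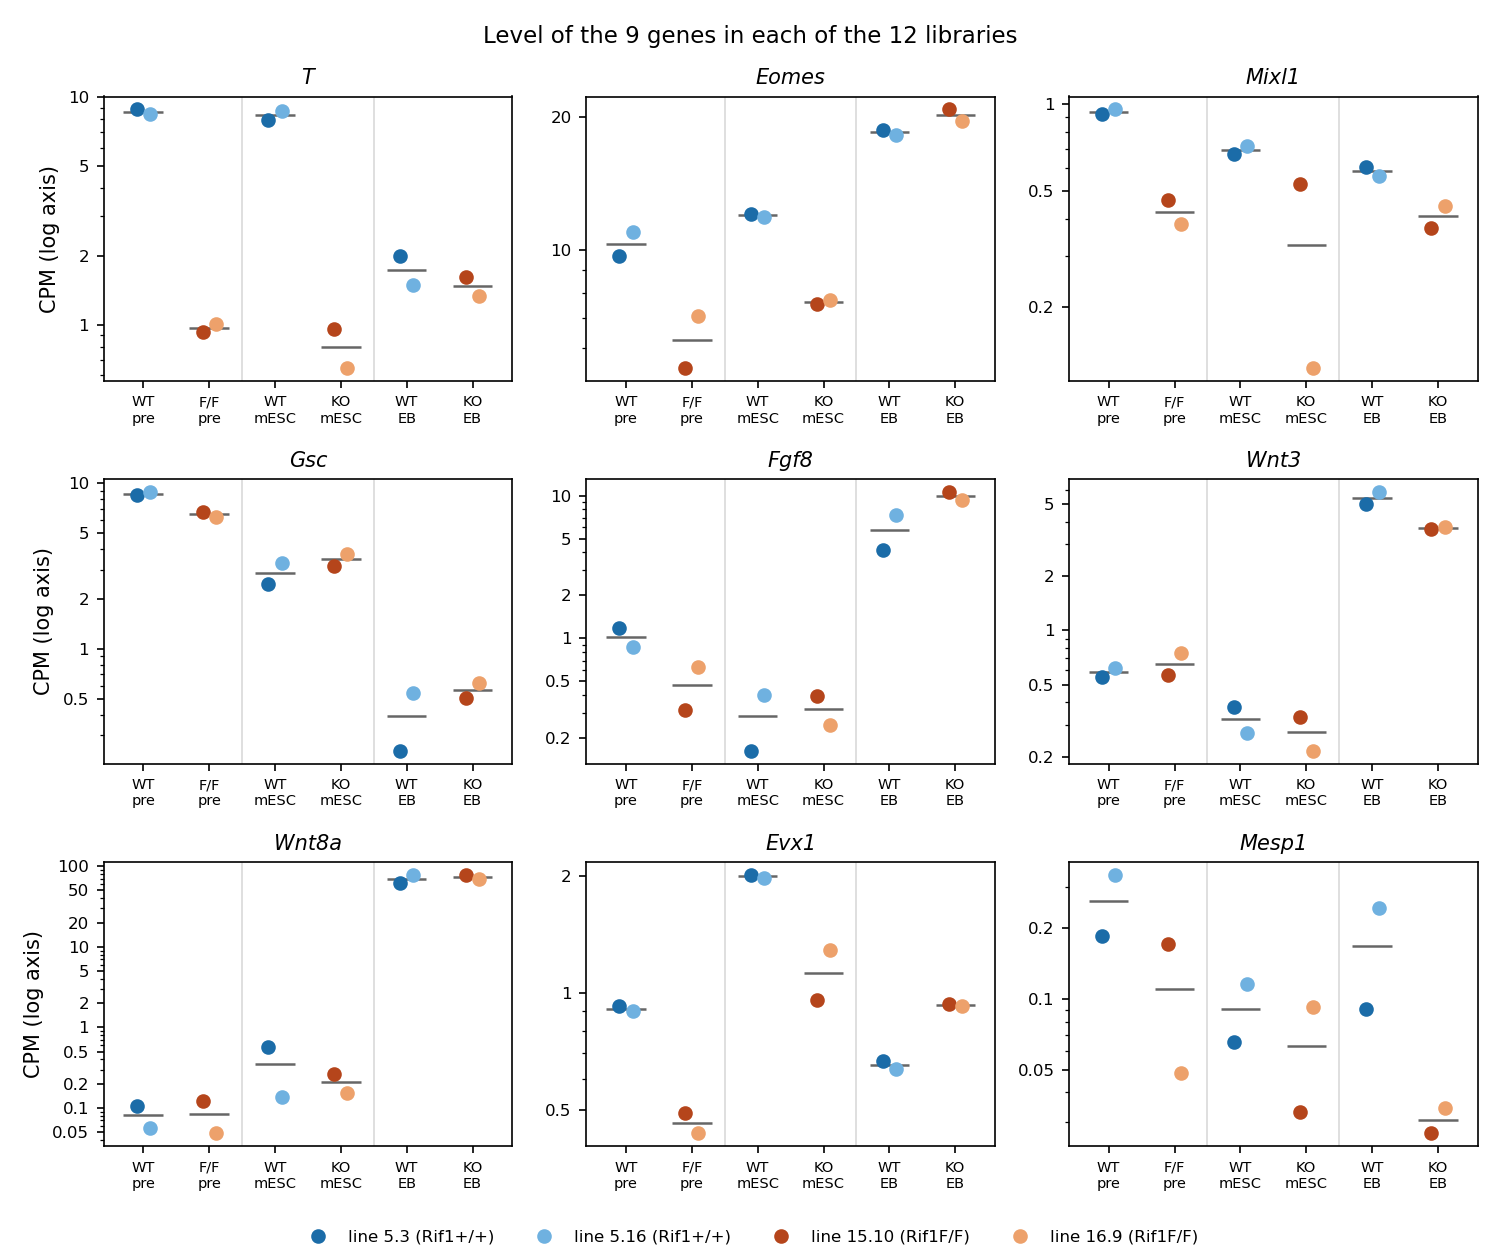
Level of each of the 9 genes in CPM (log axis) in the 12 libraries, coloured by cell line, with the mean of each group of 2 as a bar. In both mESC conditions T lies near 8 to 9 CPM in the WT lines and near 1 CPM or below in the floxed lines, and all 4 EB libraries lie between 1.34 and 2.00 CPM, whereas Wnt8a is under 1 CPM in every mESC library and above 60 CPM in every EB library.

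Wnt8a, a secreted ligand of the Wnt family expressed around the early streak, was very low in mESC. Before OHT it stood at 0.106 and 0.0562 CPM in lines 5.3 and 5.16 and at 0.122 and 0.0482 CPM in lines 15.10 and 16.9, which rests on 6 and 7 counts per group. After OHT the mESC levels were 0.574 and 0.135 CPM in WT and 0.265 and 0.154 CPM in KO. In EB they were 61.7 and 77.0 CPM in WT and 77.8 and 68.6 CPM in KO. All EB libraries were far above all mESC libraries, and in EB the genotypes overlapped.

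The rise of Wnt8a from mESC to EB was 7.54 ± 0.24 (SE, log2) in WT (adjusted p = 3.47e-14) and 8.44 ± 0.29 in KO (adjusted p = 1.09e-13), 186-fold and 348-fold. By fold change it was number 16 from the top of 17115 genes in WT and number 21 in KO. Without WT mESC replicate 1, the library with 0.574 CPM, the WT value was 8.93, and without WT mESC replicate 2 it was 6.91. KO and WT EB differed by 0.08 ± 0.15 (adjusted p = 0.706). The rises in KO and WT differed by 0.90 ± 0.62 (adjusted p = 0.303), a call that was gained without WT mESC replicate 2 (adjusted p = 0.024). After OHT, WT mESC were 2.14 ± 0.73 above WT mESC before it (adjusted p = 0.0218), but this value was 0.72 (adjusted p = 0.525) without WT mESC replicate 1 and the call was also lost without either WT library from before OHT.

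Wnt3 encodes the Wnt ligand without which the mouse embryo forms no primitive streak. Its levels before OHT were 0.554 and 0.618 CPM in WT and 0.562 and 0.747 CPM in F/F. In mESC after OHT they were 0.377 and 0.270 CPM in WT and 0.331 and 0.216 CPM in KO. In EB they reached 5.03 and 5.81 CPM in WT and 3.66 and 3.74 CPM in KO. The genotypes overlapped in both mESC conditions, and in EB both WT libraries were above both KO libraries.

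Wnt3 rose from mESC to EB by 4.04 ± 0.25 in WT (adjusted p = 2.45e-10) and by 3.75 ± 0.30 in KO (adjusted p = 8.69e-09). KO EB were lower than WT EB by a log2 fold change of -0.55 ± 0.20 (adjusted p = 0.0327). This call was lost when any 1 of the 4 EB libraries was left out (adjusted p 0.0601 to 0.229) and with DESeq2 (adjusted p = 0.165). The genotype difference in EB did not differ from that in mESC beyond its error, at -0.29 ± 0.46 (adjusted p = 0.683). From before to after OHT, Wnt3 fell by 1.26 ± 0.38 in the floxed lines (adjusted p = 0.0121), lost without KO mESC replicate 4 (0.125) or F/F replicate 4 (0.0752). In WT the change was -0.84 ± 0.33 (adjusted p = 0.0457), lost with the cell line as a block (adjusted p = 0.0621), with DESeq2 and without any of the 4 libraries.

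Fgf8 encodes the fibroblast growth factor that streak cells need in order to migrate away from the streak. Before OHT it stood at 1.19 and 0.871 CPM in WT and at 0.318 and 0.627 CPM in F/F. In mESC after OHT the levels were 0.164 and 0.405 CPM in WT and 0.397 and 0.247 CPM in KO. In EB they were 4.12 and 7.33 CPM in WT and 10.5 and 9.34 CPM in KO. Both KO EB libraries were above both WT EB libraries, and the 2 WT EB libraries lay far apart.

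Fgf8 rose from mESC to EB by 4.37 ± 0.36 in WT (adjusted p = 1.12e-08) and by 4.95 ± 0.39 in KO (adjusted p = 5.55e-09), 20.7-fold and 30.9-fold. With a library left out the WT rise ran from 3.79 to 5.11, the latter without WT mESC replicate 2. KO EB exceeded WT EB by 0.79 ± 0.26 (adjusted p = 0.0208), 1.72-fold, and the call was kept only without WT EB replicate 2, the higher WT library. It was lost without WT EB replicate 1 and without either KO EB library, up to an adjusted p of 0.231. Before OHT the sign was opposite, with F/F below WT by -1.12 ± 0.43 (adjusted p = 0.0488), lost without either WT library or F/F replicate 3 from before OHT (up to 0.288). The difference between these genotype effects, EB against before deletion, was 1.91 ± 0.50 (adjusted p = 0.0075), and it was lost without WT replicate 1 or F/F replicate 3 from before OHT (up to 0.0514). In mESC after OHT, KO and WT differed by 0.21 ± 0.59 (adjusted p = 0.813). The genotype difference in EB did not differ from that in mESC after OHT beyond its error, at 0.58 ± 0.64 (adjusted p = 0.539). From before to after OHT, Fgf8 fell by 1.89 ± 0.44 in WT mESC (adjusted p = 0.00217), and in the floxed lines the change was -0.56 ± 0.56 (adjusted p = 0.436). The WT value was -2.63 without WT mESC replicate 2 and -1.33 without WT mESC replicate 1, called in both.

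**Figure D2:**
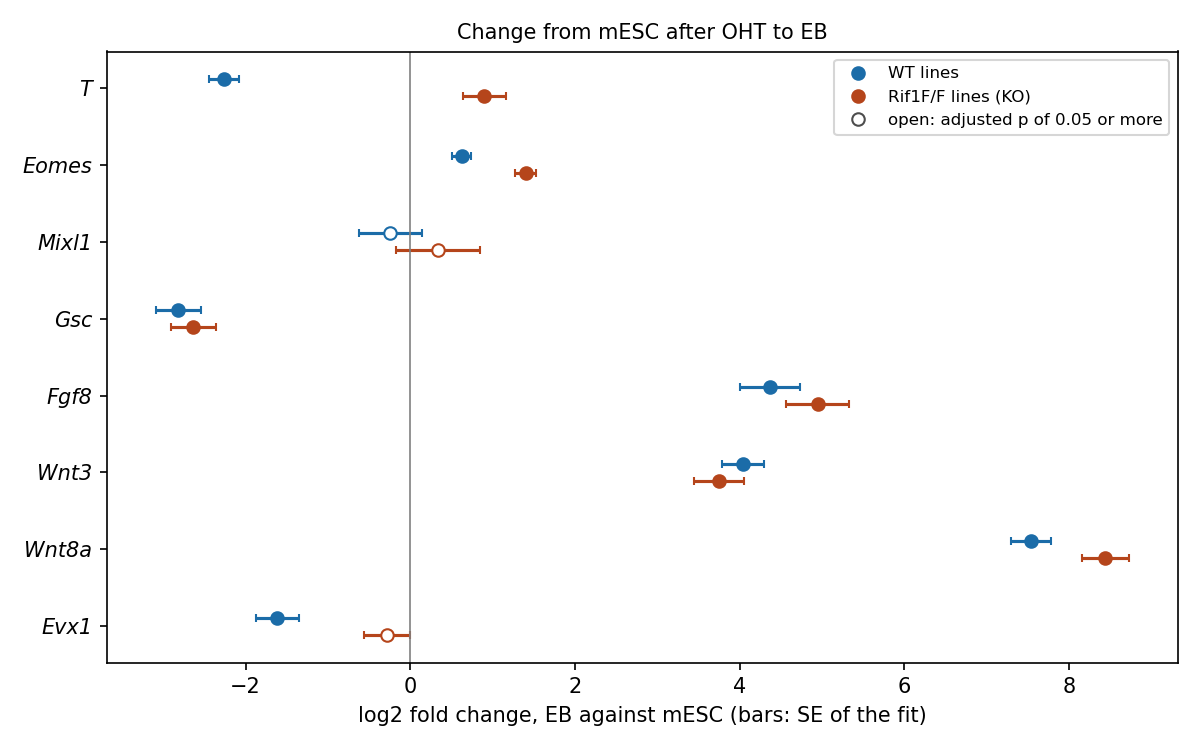
Log2 fold change from mESC after OHT to EB for the 8 genes tested, in WT lines and in floxed lines (KO), with the SE of the fit as bars and open points for an adjusted p of 0.05 or more. Wnt8a, Fgf8 and Wnt3 lie above 3.7 in both, Gsc lies near -2.8 and -2.6, and T lies at -2.26 in WT and at 0.90 in KO.

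T, also called Brachyury, is the T-box factor of the streak, nascent mesoderm and notochord. Before OHT it stood at 8.84 and 8.46 CPM in WT and at 0.929 and 1.01 CPM in F/F. In mESC after OHT it stood at 7.95 and 8.67 CPM in WT and at 0.959 and 0.647 CPM in KO. In EB it was 2.00 and 1.50 CPM in WT and 1.63 and 1.34 CPM in KO. Every WT mESC library was above every EB library, every EB library was above every floxed-line mESC library, and the genotypes overlapped only in EB.

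The KO against WT difference of T in mESC was -3.37 ± 0.21 (adjusted p = 3.2e-09), and the F/F against WT difference before OHT was -3.15 ± 0.20 (adjusted p = 2.35e-09). Both calls held whichever library was left out. Ordered from the lowest fold change of the 17115 genes tested, T was number 121 in the first comparison and number 176 in the second. The difference after OHT did not exceed that before it by more than its error, at -0.22 ± 0.32 (adjusted p = 0.709). In EB the KO against WT difference was -0.21 ± 0.23 (adjusted p = 0.482). The genotype effect in EB therefore differed from that in mESC by 3.16 ± 0.32 (adjusted p = 2.06e-06), and it stayed between 2.90 and 3.46 with a library left out.

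Within the lines, T in EB was 0.252 and 0.172 times its mESC level in lines 5.3 and 5.16, and 1.70 and 2.07 times in lines 15.10 and 16.9. Thus T fell by 2.26 ± 0.18 in WT (adjusted p = 9.42e-09) and rose by 0.90 ± 0.26 in KO (adjusted p = 0.00705). The rise in KO was no longer called without KO mESC replicate 4 (adjusted p = 0.106) or KO EB replicate 3 (adjusted p = 0.079). After OHT, T was at 0.900 and 1.03 times its level before OHT in the WT lines and at 1.03 and 0.639 times in the floxed lines, and neither change was called.

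Eomes, the T-box factor of early mesendoderm that is also active in trophoblast, had the smallest ratio of highest to lowest library of the 8 genes tested. Before OHT it stood at 9.65 and 10.99 CPM in WT and at 5.40 and 7.09 CPM in F/F. In mESC after OHT it stood at 12.1 and 11.9 CPM in WT and at 7.54 and 7.70 CPM in KO. In EB it was 18.7 and 18.2 CPM in WT and 20.8 and 19.6 CPM in KO. The floxed lines were below the WT lines in both mESC conditions and above them in EB, without overlap in any of the 3.

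Eomes was lower by a log2 fold change of -0.72 ± 0.13 in F/F before OHT (adjusted p = 0.000281) and of -0.65 ± 0.13 in KO mESC (adjusted p = 0.000638). In EB the difference was 0.13 ± 0.12 (adjusted p = 0.407). It rose from mESC to EB by 0.62 ± 0.12 in WT (adjusted p = 0.000178) and by 1.40 ± 0.13 in KO (adjusted p = 3.93e-08), and these rises differed by 0.78 ± 0.17 (adjusted p = 0.00289). Leaving out any 1 library kept each of these calls. By its gene span the annotation places Gm33460 on the opposite strand over Eomes. Whether their exons overlap was not examined, and no source used here says whether strand was used in counting. Reads of any shared exon stretch therefore could not be told apart.

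Gsc encodes goosecoid, the homeobox factor of the organizer and anterior streak. Before OHT it stood at 8.47 and 8.83 CPM in WT and at 6.70 and 6.29 CPM in F/F. In mESC after OHT it was 2.47 and 3.28 CPM in WT and 3.18 and 3.76 CPM in KO. In EB it was 0.243 and 0.539 CPM in WT and 0.507 and 0.618 CPM in KO. Gsc was lower after OHT than before and lower again in EB in every line, and the genotypes overlapped in mESC after OHT and in EB.

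From before to after OHT, Gsc fell by 1.59 ± 0.19 in WT (adjusted p = 4.93e-06), with a change of -0.90 ± 0.19 in the floxed lines (adjusted p = 0.00132). From mESC to EB it fell further, with changes of -2.81 ± 0.28 in WT (adjusted p = 1.11e-07) and -2.63 ± 0.27 in KO (adjusted p = 2.46e-07). With a library left out the WT value ran from -3.58, without WT EB replicate 2, to -2.44. No genotype difference was called, with -0.41 ± 0.18 before OHT (adjusted p = 0.0795), 0.28 ± 0.20 in mESC (adjusted p = 0.298) and 0.46 ± 0.38 in EB (adjusted p = 0.367). The first of these was called when only its own groups entered the fit (adjusted p = 0.0421).

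Evx1, an even-skipped homeobox factor of the posterior streak, stood before OHT at 0.923 and 0.900 CPM in WT and at 0.489 and 0.434 CPM in F/F. In mESC after OHT it was 2.02 and 1.99 CPM in WT and 0.959 and 1.29 CPM in KO. In EB it was 0.667 and 0.638 CPM in WT and 0.934 and 0.927 CPM in KO. As for Eomes, the floxed lines lay below WT in both mESC conditions and above WT in EB, with no overlap. How many of all genes show no overlap between such groups of 2 was not counted. In EB the difference was not called for Eomes, nor for Evx1, at 0.51 ± 0.30 (adjusted p = 0.183). All groups but WT mESC rest on 38 to 71 counts in total.

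Evx1 rose after OHT by 1.13 ± 0.25 in WT (adjusted p = 0.00119) and by 1.29 ± 0.30 in the floxed lines (adjusted p = 0.0025), the one gene of the 9 with a rise called in both. It then fell by 1.61 ± 0.26 to EB in WT (adjusted p = 3.48e-05), while KO EB and KO mESC differed by -0.28 ± 0.28 (adjusted p = 0.409). The difference of the genotype effects, EB against mESC, was 1.34 ± 0.38 (adjusted p = 0.0151), lost without KO mESC replicate 3, WT EB replicate 2 or KO EB replicate 3 (up to 0.0644) and with DESeq2 (0.0714). Evx1 was lower by a log2 fold change of -0.82 ± 0.24 in KO mESC (adjusted p = 0.0131) and of -0.98 ± 0.30 in F/F before OHT (adjusted p = 0.0175). The former call was lost without WT mESC replicate 1 (0.0587) or KO mESC replicate 3 (0.137), the latter without either WT library or F/F replicate 4 from before OHT (up to 0.0902), and both with DESeq2. Evx1os lies opposite Evx1 by gene span in the annotation, and the same limit holds for reads of these genes.

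Mixl1, the paired-type homeobox factor of the streak and early endoderm, stayed under 1 CPM in every library. Before OHT it stood at 0.923 and 0.956 CPM in WT and at 0.465 and 0.386 CPM in F/F. In mESC after OHT it was 0.672 and 0.713 CPM in WT and 0.529 and 0.123 CPM in KO. In EB it was 0.606 and 0.564 CPM in WT and 0.374 and 0.446 CPM in KO. Both floxed-line libraries were below both WT libraries in each of the 3 conditions. The difference was called before OHT, at -1.14 ± 0.40 (adjusted p = 0.0326), but not in mESC (-1.10 ± 0.44, adjusted p = 0.058) or EB (-0.52 ± 0.45, adjusted p = 0.384). The call before OHT was lost when any 1 library was left out (up to 0.154) and with DESeq2 (0.119). In mESC the difference became -2.46 (adjusted p = 0.00499) without KO mESC replicate 3 and -0.38 (adjusted p = 0.564) without KO mESC replicate 4. No change from mESC to EB was called in either genotype.

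Mesp1, a factor of the earliest cardiac mesoderm, gave 1 to 12 counts per library, under 0.35 CPM everywhere. The WT and F/F libraries before OHT held 7 and 12 and 7 and 2 counts. After OHT the mESC libraries held 4 and 6 counts in WT and 1 and 3 in KO, and the EB libraries held 3 and 10 counts in WT and 1 and 1 in KO. With no filter, KO against WT EB gave -2.41 ± 1.17 (adjusted p = 0.101), and no comparison of Mesp1 was called. The WT and KO EB libraries of Mesp1 did not overlap, on 13 and 2 counts in total.

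Per kilobase of merged exons of the GENCODE M21 annotation, the genes stood in a different order in mESC and in EB. In WT mESC before OHT, Gsc was highest at 6.82 CPM per kb, followed by T at 3.74 and Eomes at 2.48, and Wnt8a was lowest at 0.0463. In WT mESC after OHT the first was T at 3.59 CPM per kb, followed by Eomes at 2.88 and Gsc at 2.27. In WT EB, Wnt8a was highest at 39.7 CPM per kb, followed by Eomes at 4.44, Fgf8 at 4.24, Wnt3 at 1.76 and T at 0.755. Gsc, Mixl1, Evx1 and Mesp1 were at 0.308, 0.255, 0.227 and 0.132 CPM per kb. In KO EB the order began with Wnt8a at 41.9, Fgf8 at 7.36 and Eomes at 4.85 CPM per kb.

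Counted against all genes tested, 5 of the 8 genes were lower in F/F than in WT before OHT (T, Eomes, Mixl1, Fgf8 and Evx1) and 0 were higher, where 37.4% of all genes were called, 17.5% lower and 19.9% higher. With a library left out, 2 or 3 of these were called. In mESC after OHT, 3 were lower in KO than in WT (T, Eomes and Evx1) and 0 were higher, where 38.4% of all genes were called, 18.6% lower and 19.8% higher. In EB, 1 was higher and 1 lower, where 40.4% of all genes were called, 20.7% higher and 19.7% lower. The count in EB was 0 without WT EB replicate 1 or either KO EB library and 1 without WT EB replicate 2.

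From mESC to EB, 4 of the 8 rose and 3 fell in WT, where 62.3% of all genes were called, 32.5% higher and 29.8% lower. In KO, 5 rose and 1 fell, where 59% were called, 31.4% higher and 27.6% lower. From before to after OHT, 5 changed in WT, 2 up and 3 down, where 49.1% of genes were called, 24.9% up and 24.2% down. In the floxed lines 3 changed, 1 up and 2 down, where 43.7% were called, 22.1% up and 21.5% down. The OHT comparisons share their mESC libraries with those of mESC and EB.

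The signed genotype effect (floxed lines against WT) was higher in EB than in mESC for 3 of the 8 genes and lower for 0. Of all genes tested 28.6% were called, 14.8% higher and 13.7% lower. The 3 were T, Eomes and Evx1, at log2 values of -3.37, -0.65 and -0.82 in mESC. None of them was called in EB, at -0.21, 0.13 and 0.51. Against the time before deletion, the signed effect was higher in EB for 4 genes (T, Eomes, Fgf8 and Evx1) and lower for 0. There 31.2% of all genes were called, 15.5% higher and 15.7% lower. All 4 were called lower in F/F before OHT, and in EB only Fgf8 of them was called, higher in KO. These comparisons share their EB libraries. For the genotype effect after against before OHT, edgeR called 0 of the 8 and DESeq2 also 0, where edgeR called 7.86% of all genes, 4.07% higher and 3.79% lower. There, 1 gene (Gsc, at 0.69 ± 0.27) had an unadjusted p under 0.05, and Gsc was called without WT mESC replicate 2 (adjusted p = 0.0368).

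**Figure D3:**
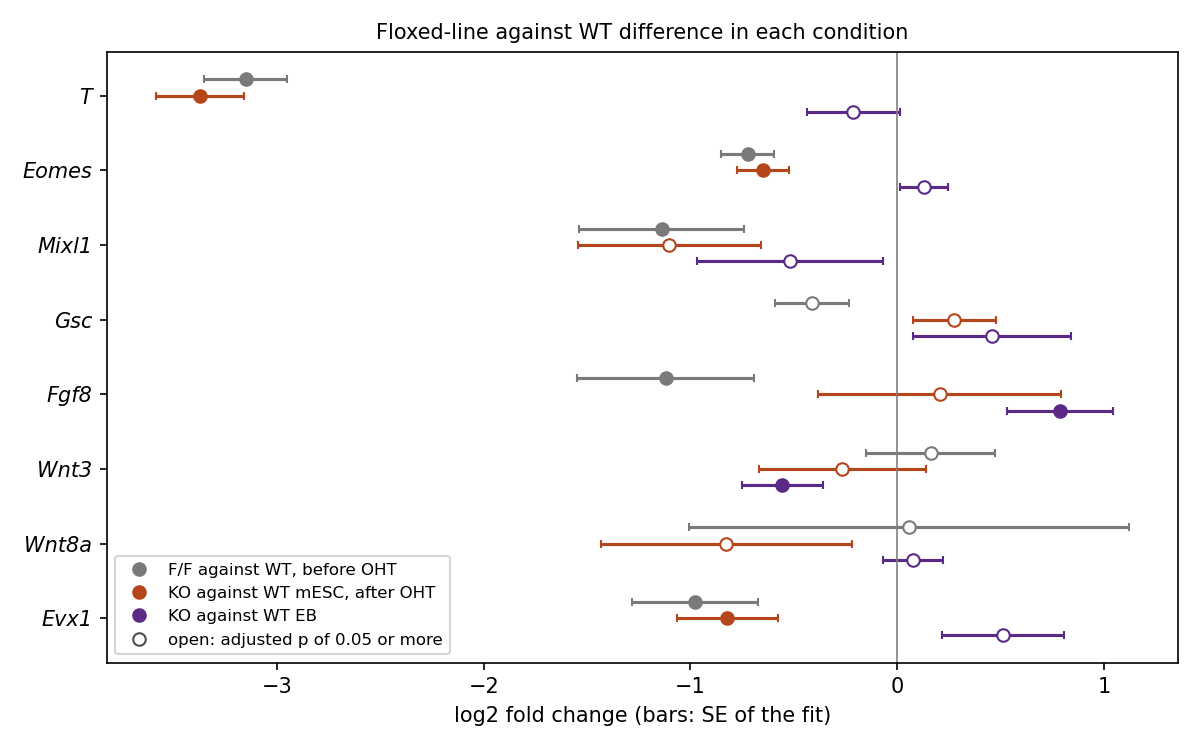
Log2 fold change of the floxed lines against the WT lines for the 8 genes tested, before OHT, in mESC after OHT and in EB, with the SE of the fit as bars and open points for an adjusted p of 0.05 or more. T lies at -3.15 and -3.37 in the mESC conditions and at -0.21 in EB, and Eomes and Evx1 are below 0 in both mESC conditions and above 0 in EB, where neither was called.

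Other genes of the same pathways were counted in lists, of which each member was given the same test. Of 23 nascent mesoderm genes tested, 15 rose and 3 fell from WT mESC to WT EB, where 32.5% of all genes rose and 29.8% fell. In KO EB, 2 were higher and 6 lower than in WT EB, where 20.7% of all genes were higher and 19.7% lower. Their median log2 fold change there was -0.16, against -0.02 for all genes tested. Snai1, a repressor of E-cadherin in streak cells, was higher in KO EB by 2.01 ± 0.21 (adjusted p = 9.56e-07), at 6.56 ± 0.20 against 1.62 ± 0.14 CPM (SD, n = 2). Dll3, a Notch ligand of the presomitic mesoderm, was lower by a log2 fold change of -0.95 ± 0.24 (adjusted p = 0.00448). Of 12 other T-box genes tested, 1 rose and 8 fell in WT from mESC to EB, where 32.5% of all genes rose and 29.8% fell. In KO EB 2 of them were higher (Tbx20 and Tbx2) and 1 lower (Mga), where 20.7% of all genes were higher and 19.7% lower. Before OHT the cardiac T-box gene Tbx20 had a level of 8.49 ± 1.34 CPM in the WT and of 123.6 ± 4.74 CPM in the F/F lines (SD, n = 2), a direction opposite to that of T in the same libraries.

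Of the 14 Wnt target genes tested, 2 were higher and 7 lower in F/F before OHT, 1 was higher and 6 lower in KO mESC, and 2 were higher and 6 lower in KO EB. Their medians were -0.34, -0.22 and -0.15. Over all genes tested, 19.9%, 19.8% and 20.7% were higher and 17.5%, 18.6% and 19.7% lower in the same order. Lef1, a DNA-binding partner of beta-catenin, was lower in the floxed lines in all 3 conditions, by a log2 fold change of -1.99 ± 0.12 before OHT (adjusted p = 9.29e-10), -1.35 ± 0.11 in mESC (adjusted p = 6.34e-08) and -0.97 ± 0.09 in EB (adjusted p = 1.15e-07). Notum, a secreted enzyme that inactivates Wnt ligands, was lower, at -1.33 ± 0.17, -1.97 ± 0.16 and -3.60 ± 0.22 in the same order, and in EB its level was 14.1 ± 0.91 CPM in the WT and 1.15 ± 0.03 CPM in the KO libraries (SD, n = 2). The third gene named, Myc, differed by 0.48 ± 0.31 before OHT (adjusted p = 0.237) and was lower in KO mESC, at -1.02 ± 0.22 (adjusted p = 0.00138), and in KO EB, at -1.26 ± 0.18 (adjusted p = 2.87e-05). These 3 genes were picked for their small p in EB, so their calls there are a description. Axin2 and Bambi, also in this list, went the other way, with higher group means in the floxed lines in all 3 conditions. In EB Axin2 averaged 28.1 CPM in KO and 23.0 CPM in WT and was not called (adjusted p = 0.108). Bambi averaged 17.1 CPM in KO EB and 12.4 CPM in WT EB (adjusted p = 0.00524).

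Of 41 Wnt pathway genes tested, 7 were higher and 8 lower in KO EB, with a median of -0.08. Of all genes tested, 20.7% were higher and 19.7% lower there. Wls, which carries Wnt ligands to the cell surface, was higher by 1.50 ± 0.10 (adjusted p = 2.12e-09). The receptor genes Fzd10 and Fzd7 moved apart, Fzd10 higher by 0.98 ± 0.09 (adjusted p = 2.21e-07) and Fzd7 lower, at -0.90 ± 0.10 (adjusted p = 9.98e-07). Of 24 genes of FGF and ERK signalling, 5 were higher and 13 lower in KO EB, with a median of -0.33. Fgf8 itself was higher there, while Fgf4, the ligand of epiblast cells, was lower, at -0.62 ± 0.07 (adjusted p = 9.05e-07) and Dusp6, a phosphatase induced by ERK, was lower, at -0.90 ± 0.10 (adjusted p = 1.44e-06). The receptor gene Fgfr1 was higher by 0.52 ± 0.07 (adjusted p = 6.87e-06).

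Of 19 Nodal pathway genes, 10 were higher and 3 lower in KO EB, with a median of 0.31. The shares of all genes tested were again 20.7% higher and 19.7% lower. Lefty2, a secreted Nodal inhibitor that Nodal itself induces, stood at 191.03 ± 11.5 CPM in WT EB and 383 ± 16.1 CPM in KO EB (SD, n = 2), higher by 1.00 ± 0.13 (adjusted p = 6.92e-06). Smad3, a signal carrier, was higher by 0.64 ± 0.07 (adjusted p = 1.03e-06), and Skil, a repressor of SMAD activity, was lower, at -0.54 ± 0.07 (adjusted p = 7.97e-06). Of 18 endoderm and organizer genes, 4 were higher and 3 lower, beside the same shares of all genes. Otx2, the anterior homeobox factor, was lower, at -1.20 ± 0.10 (adjusted p = 9.22e-08). Foxa1, an endoderm factor, was higher by 2.25 ± 0.26 (adjusted p = 3.07e-06), and Trh, a hormone gene, by 1.52 ± 0.14 (adjusted p = 2.21e-07). Of 12 genes of the epithelial to mesenchymal transition, 2 were higher and 6 lower, among them the junction genes Ocln, Epcam and Cdh1 at -0.64 ± 0.08, -0.48 ± 0.06 and -0.44 ± 0.07. These counts describe the lists and were given no test of their own.

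**Figure D4:**
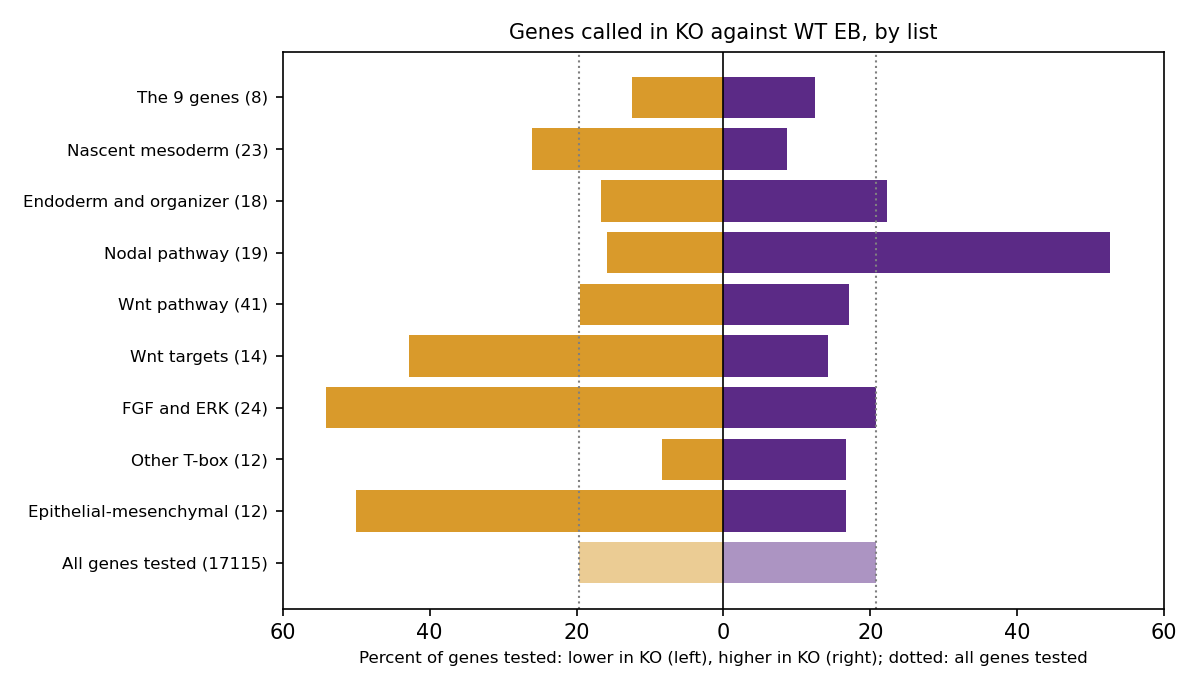
Percent of the tested genes of each list called lower (left) or higher (right) in KO EB than in WT EB, with the number tested in parentheses and dotted lines at the shares of all genes tested, 19.7% and 20.7%. The Nodal list extends furthest to the right and the FGF and ERK list furthest to the left.

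Markers of the cell types that such cultures can hold were summed over each library, and their members were counted by the same test. Nanog, Sparc, Gata4, Lama1, Eif1a and Olig2 are named from these lists after their values were seen. The 10 pluripotency markers summed to 5300 to 5384 CPM in WT mESC, 5629 to 6013 CPM in KO mESC, 1814 to 1922 CPM in WT EB and 1822 to 1922 CPM in KO EB. In EB 5 of the 10 were higher and 2 lower in KO, where 20.7% of all genes tested were higher and 19.7% lower. The EB level of Nanog, 1 of the 5, averaged 73.7 CPM over the WT libraries and 160.2 CPM over the KO libraries. The 9 markers of formative and primed epiblast summed to 2851 to 2863 CPM in WT EB and 1528 to 1546 CPM in KO EB, with 1 higher and 7 lower in KO, and to 371 to 380.0 CPM against 286 to 287 CPM in mESC. The genotype difference of Wnt3 in EB had this direction and that of Fgf8 did not.

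The counts that follow stand beside 20.7% of all genes tested higher and 19.7% lower in KO EB. The 14 primitive endoderm markers summed to 308 to 311 CPM in WT EB and 396 to 404 CPM in KO EB. Of them 3 were higher and 4 lower in KO EB, with Ttr at 0 there. Sparc alone gave 142.5 CPM of this sum in WT EB and 235 CPM in KO EB, and Gata4 and Lama1 were lower. The 12 trophoblast markers, of which Eomes is one, summed to 106 to 111 CPM and 125 to 132 CPM, with 3 of 11 tested higher and 1 lower, and Tpbpa at 0 in WT EB. The 13 feeder fibroblast markers summed to between 15.6 and 48.0 CPM in all libraries. The 13 markers of 2-cell-like cells summed to 228 to 254 CPM in WT EB and 529 to 579 CPM in KO EB, with 10 of the 11 tested higher in KO. Most of the WT sum was Eif1a, which was not called, at 227.9 CPM in WT EB and 212 CPM in KO EB. The part of these marker differences in the genotype differences of Fgf8 and Wnt3 was not tested.

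The summed level of the 11 neuroectoderm markers, like T, was lower in the floxed lines in both mESC conditions. They summed to 103 to 108 CPM in WT and 43.4 to 45.5 CPM in F/F before OHT, and to 118 to 127 CPM in WT and 63.7 CPM in both KO libraries of mESC. In EB they summed to 64.9 to 73.1 CPM in WT and 75.2 to 76.9 CPM in KO. Of the 10 tested, 0 were higher and 5 lower in F/F before OHT, and 1 was higher and 4 lower in KO mESC. In KO EB 2 were higher and 1 lower. Over all genes tested, 19.9%, 19.8% and 20.7% were higher and 17.5%, 18.6% and 19.7% lower in the same order. Olig2 was at 20.2 CPM in WT and 0.0121 CPM in F/F before OHT. The part of these markers in the genotype difference of T was not tested.

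The genes whose log2 CPM followed each of the 8 most closely over the 12 libraries are given as a description, since the libraries come from only 4 lines and 3 conditions. T was followed by Fam101b (Pearson's r = 0.974) and Wdr37 (0.963), Eomes by Myh7 (0.985) and Rhebl1 (0.978), and Gsc by Foxc1 (0.986) and Bmp7 (0.985). Wnt8a was followed by Hist1h1t (0.993) and Fgf5 (0.992), the latter a marker of the primed epiblast, Wnt3 by Epcam (0.990) and 9230110C19Rik (0.988), and Fgf8 by Irgm2 (0.981) and Slc5a5 (0.977). Evx1 had Popdc3 (0.949) and Colec12 (0.934), and Mixl1 had Cela2a (0.947) and Arntl2 (0.930). Among the 8 themselves the highest r was that of Fgf8 with Wnt3 at 0.937, and the lowest that of Gsc with Wnt8a at -0.961. T had its highest r with Mixl1 at 0.783.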

How the data were processed

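Total RNA of 12 samples was sequenced. The authors' deposited values are raw counts of reads for each gene symbol, as whole numbers in 1 table. Per the submitters' processing notes BWA, HTSeq, DESeq2 and mm9 were used, with no version or role given. Columns were assigned to samples by the bracketed codes in the titles. Tests used edgeR 4.0.16 (R 4.3.3) with filterByExpr at a minimum count of 10, TMM and 1 quasi-likelihood model of the 6 groups with 10 contrasts. The test was also run on simulated counts with the same dispersion for every gene. That check does not cover variation between lines that differs by gene. The biological coefficient of variation was 0.0717. DESeq2 1.42.0 was an alternative. Exon lengths (GENCODE M21) and promoters (RefSeq, GRCm38.p6) were matched by symbol, since the builds differ. The 9 genes, the 8 pathway lists and the 7 marker lists were chosen with earlier results of these data known. Genes named were the 9, up to 3 per pathway list with the smallest adjusted p in KO against WT EB (called, mean log2 CPM 0 or more), and the 2 best correlated with each tested gene (log2 CPM, prior count 2). Of these, 1 is not reported here. Libraries pair by cell line, as labelled, and a line's deviations from the group means correlated at -0.0660 to 0.0912. Each group spans 2 lines, each sequenced once.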

Additional observations from a re-analysis of the deposited data

Results flagged for a closer look

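For 7 values the effect of genotype differed between conditions by a test of the difference itself (edgeR's quasi-likelihood test with Benjamini-Hochberg adjustment). Between EB and mESC after OHT the log2 difference was 3.16 for T, 0.78 for Eomes and 1.34 for Evx1. Between EB and mESC before deletion it was 2.94 for T (adjusted p = 1.58e-06), 0.85 for Eomes (adjusted p = 0.00126), 1.91 for Fgf8 (adjusted p = 0.0075) and 1.49 for Evx1 (adjusted p = 0.0128). The EB libraries enter both comparisons, so these values are not independent of each other. The Evx1 value of 1.49 was not called by DESeq2 (adjusted p = 0.0532).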

How the results depend on the processing

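Of 789 values of the 8 genes under other settings, 702 kept their direction and side of the threshold, 45 lost the call, 10 gained it and 32 changed sign. DESeq2 size factors changed 0 of 80. The cell line as a replicate block, possible for comparisons within a genotype and for differences between conditions, changed 1 of 56: Wnt3 in WT after against before OHT, at -0.83 (adjusted p = 0.0621). Each line has 1 genotype, so genotype within a condition could not take the block. DESeq2's test called 1 gene in KO against WT EB and 3 in F/F against WT before deletion. Fitting only the groups compared left 3 called in WT after against before OHT. With a library left out, the genes called numbered 0 to 1 in KO against WT EB, 2 to 3 in F/F against WT before deletion, 3 to 4 in WT after against before OHT, and 0 to 1 for the genotype effect after against before OHT.

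All 32 changes of sign came from leaving out 1 library, in values that were not called in the fit of all libraries. Their ranges were, for KO against WT mESC, -0.32 to 0.95 (Fgf8), -0.59 to 0.024 (Wnt3) and -1.45 to 0.62 (Wnt8a). For F/F against WT before deletion they were -0.72 to 0.57 (Wnt8a) and -0.057 to 0.36 (Wnt3), and for KO against WT EB -0.41 to 0.013 (T) and -0.058 to 0.26 (Wnt8a). For WT after against before OHT the range was -0.12 to 0.022 (T), for the floxed lines -1.76 to 0.32 (Mixl1) and -0.97 to 0.011 (Fgf8), and for KO EB against KO mESC -0.38 to 1.69 (Mixl1). For the genotype effect in EB against mESC the ranges were -0.53 to 1.53 (Wnt8a), -0.24 to 0.90 (Gsc), -0.16 to 1.12 (Fgf8), -0.57 to 0.037 (Wnt3) and -0.14 to 1.94 (Mixl1). For that after against before OHT they were -1.51 to 0.56 (Wnt8a), -1.32 to 0.75 (Mixl1), -0.53 to 0.040 (T), -0.082 to 0.35 (Evx1) and -0.11 to 0.28 (Eomes), and for that in EB against before deletion -0.49 to 0.80 (Wnt8a). Beyond the dropped library, the cause was not tested.

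Over all genes, the genotype effect after against before OHT gave 1346 calls, against 2218 with no filter, 705 with only its groups and 510 to 2540 with a library left out. KO against WT mESC gave 6572 calls, and 4125 without KO mESC replicate 4. Genes of the lists called in KO against WT EB numbered 80, and 62 to 66 with a library left out. Counts were low for Mesp1, Mixl1, Gsc in EB and, in mESC, Wnt8a, Wnt3 and Fgf8, which had 13 to 42 counts per group after OHT.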
